A study of Trichoderma reesei with 8 samples.

Results

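Transcript levels were described for 5 genes of *T. reesei* that encode, or are annotated to encode, small secreted proteins of the fungal surface: 3 hydrophobin genes and 2 genes annotated as relatives of the cerato-platanin Epl1/Sm1. They were taken by protein ID from the table of expected counts, in which they are 5 of 9143 genes, and all 5 passed the filter on low counts. The choice was made with earlier results of these data known, so counts and medians beside those of all genes are a description only. The hydrophobin genes were *hfb2* (protein ID 119989), *hfb3* (protein ID 123967) and a further hydrophobin family gene (protein ID 120189, here TR_120189). The cerato-platanin group held the gene annotated Epl1/Sm1 (protein ID 22386, here TR_22386) and a gene annotated to the same family (protein ID 111442, here TR_111442). The names of TR_120189, TR_22386 and TR_111442 rest on the annotation given with the study, and no protein sequence was used here to check their domains.

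Hydrophobins are small secreted proteins with a conserved pattern of cysteines that assemble at the border of water and air into amphipathic layers. They make hyphae and spores water repellent, and in *T. reesei* HFB1 is known mainly from the hyphal wall and HFB2 from the conidial wall. Cerato-platanins are small secreted proteins, also rich in cysteine, and Sm1 of *T. virens* and Epl1 of *T. atroviride* are known as elicitors of plant defence.

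The wildtype QM6a and the recombinant strain ∆*ypr2*, which lacks the transcription factor gene *ypr2*, were grown as liquid cultures in minimal medium with 1% cellulose and 0.1% peptone for 72 h at 28 °C and 200 rpm, either in constant light (1600 lx) or in constant darkness. Before that, all strains had been kept on malt extract plates in darkness for 14 days, and the RNA came from whole mycelium. Each of the 4 groups had 2 biological replicates, hence 8 libraries, which held 16.9 to 22.9 Mio expected counts. Levels are given as CPM, that is scaled counts per Mio, where 1 count corresponds to 0.0438 to 0.0579 CPM. A single deletion strain was used, so an effect of the deletion and a feature of this strain cannot be told apart. The study reported less biomass of ∆*ypr2* than of the wildtype in darkness, and no significant difference in light. The part of this difference in growth in the transcript levels was not tested. In RNA from whole mycelium fewer cells of a type and less RNA per cell cannot be told apart either.

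The *ypr2* transcript (TR_102497) had 566 and 548 counts in the wildtype in light and 3040 and 2636 in darkness, against 0 and 0 in ∆*ypr2* in light and 10 and 6 in darkness. The labels of the strains were thus borne out in all 8 libraries. Replicate libraries differed by more than counting noise (chi-square 5.85 to 34.5 per degree of freedom, the highest in ∆*ypr2* in darkness).

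Together, the 5 genes made up a sizeable part of the counts in some libraries. They took 3.49 and 3.68% of all counts in the wildtype in darkness, 1.47 and 1.33% in the wildtype in light, 1.8 and 1.82% in ∆*ypr2* in light, and 0.946 and 0.999% in ∆*ypr2* in darkness. Most of this was *hfb2*, which held between 77.8 and 88.9% of the counts of the 3 hydrophobin genes.

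**Figure D1:**
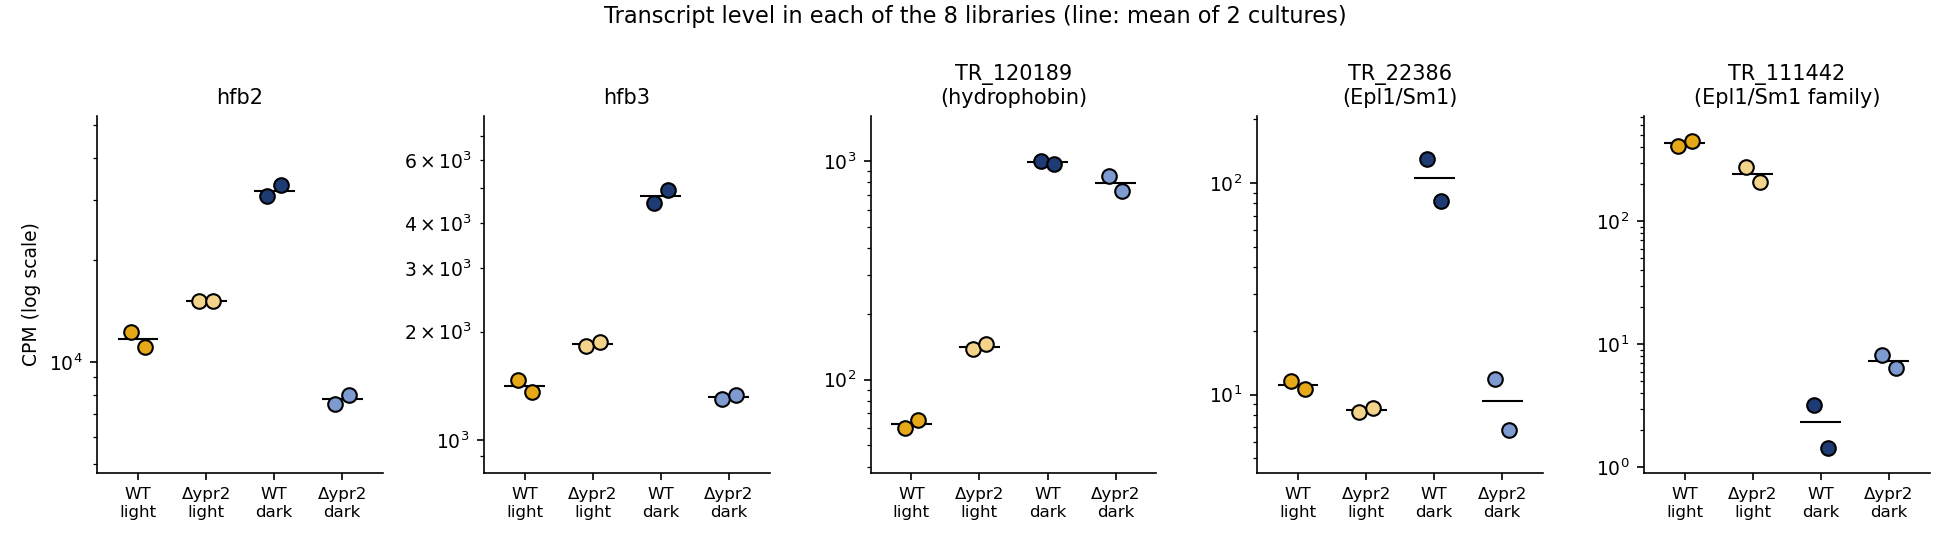
Transcript level of each of the 5 genes in CPM on a log axis, with a separate scale for each gene. Points are the 8 libraries, grouped by strain and light condition, and lines are means of 2 cultures. The wildtype in darkness stands highest for *hfb2*, *hfb3*, TR_120189 and TR_22386, and lowest for TR_111442.

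The gene *hfb2* lies on scaffold 2 of the RefSeq assembly v2.0 (17118 to 17828, 711 bp with introns). Its transcript reached 30817 and 33120 CPM in the wildtype in darkness, the highest CPM of all genes in both libraries. Ranks given here are by CPM and not corrected for length. In ∆*ypr2* in darkness it had 7530 and 7956 CPM, ranks 5 and 3. In light the wildtype had 12265 and 11047 CPM and ∆*ypr2* had 15156 and 15124 CPM, and it ranked 2 in all 4 libraries. The 4 groups did not overlap, and the mean level fell 4.13-fold from the highest group, the wildtype in darkness, to the lowest, ∆*ypr2* in darkness.

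The gene *hfb3* encodes another hydrophobin and lies on scaffold 29 (139836 to 140658, 823 bp). It had 4551 and 4958 CPM in the wildtype in darkness and 1297 and 1332 CPM in ∆*ypr2* in darkness. In light the wildtype had 1468 and 1359 CPM and ∆*ypr2* had 1820 and 1877 CPM. The order of the groups was that of *hfb2*, without overlap, but the 2 lowest groups were close, at 1413 ± 76.8 CPM (mean ± SD, n = 2) for the wildtype in light and 1315 ± 24.7 CPM for ∆*ypr2* in darkness.

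The hydrophobin family gene TR_120189 lies on scaffold 2 as well (1319625 to 1320787, 1163 bp), more than a megabase away from *hfb2*. Its transcript had 1002 and 970.3 CPM in the wildtype in darkness and 854 and 732 CPM in ∆*ypr2* in darkness. In light the wildtype had 59.9 and 65.6 CPM and ∆*ypr2* had 137 and 146 CPM. Here the light condition separated the groups, since both groups from darkness were above both groups from light, and the highest group was 15.7-fold above the lowest.

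TR_22386, the gene annotated Epl1/Sm1, lies on scaffold 10 (192296 to 193367, 1072 bp). It had 129 and 82.5 CPM in the wildtype in darkness. In the wildtype in light it had 11.5 and 10.7 CPM, in ∆*ypr2* in light 8.25 and 8.62 CPM, and in ∆*ypr2* in darkness 11.8 and 6.83 CPM. Only the wildtype in darkness stood apart, and the values of ∆*ypr2* in darkness spanned both groups from light. The spread between replicates was wide in darkness, at 31.2% of the mean in the wildtype and 38% in ∆*ypr2*.

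TR_111442, annotated to the same family, lies on scaffold 27 (30118 to 30786, 669 bp) and had the opposite order of groups in the wildtype. It had 412 and 445 CPM in the wildtype in light and 277 and 207 CPM in ∆*ypr2* in light. In darkness it had 3.2 and 1.45 CPM in the wildtype, that is 59 and 25 counts, and 8.26 and 6.44 CPM in ∆*ypr2*, that is 152 and 147 counts. The groups did not overlap and the highest was 184-fold above the lowest, the widest span of the 5 genes.

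Levels of different genes were compared per length, as CPM per kb of gene span, introns included. In the wildtype in darkness *hfb2* had 44960 ± 2290, *hfb3* 5777 ± 349, TR_120189 848 ± 19.4, TR_22386 98.7 ± 30.8 and TR_111442 3.48 ± 1.86 CPM per kb. In the wildtype in light TR_111442 (640 ± 35.4) came next after *hfb2* and *hfb3*, above TR_120189 (54 ± 3.45) and TR_22386 (10.4 ± 0.569). *hfb2* and *hfb3* held the first and the second place in all 4 groups.

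The first comparison asks what loss of *ypr2* changed in darkness. A gene was called when the adjusted p (edgeR, Benjamini-Hochberg over all genes tested) was under 0.01 and the change at least 2-fold. Of the 5 genes, *hfb2*, *hfb3* and TR_22386 were downregulated in ∆*ypr2*, TR_111442 was upregulated, and TR_120189 was not called. Among all 8469 genes tested 6.05% were called lower and 9.68% higher. The median log2 fold change of the 5 genes was -1.85, beside 0.01 for all genes.

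In darkness *hfb2* was 4.13-fold lower in ∆*ypr2* (log2 fold change -2.05 ± 0.08, ± SE, adjusted p = 1.04e-07, edgeR). The drop of *hfb3* was similar in size, at 3.62-fold (-1.85 ± 0.07, adjusted p = 8.56e-08). For the Epl1/Sm1 gene TR_22386 the level in ∆*ypr2* was 11.5-fold lower (-3.53 ± 0.26, adjusted p = 2.65e-06). The size of the change in TR_22386 was past that of 98.5% of all genes tested, and those of *hfb2* and *hfb3* past 94.7 and 93.5%.

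TR_111442 moved the other way in darkness, 3.09-fold up in ∆*ypr2* (log2 fold change 1.63 ± 0.35, adjusted p = 0.00182). This call rests on low counts in the wildtype: without the second wildtype library from darkness it shrank to 1.18 (adjusted p = 0.012) and the call was lost. Without the first one it was 2.32. The call was lost with limma-voom as well (1.71, adjusted p = 0.0124). TR_120189 differed by -0.31 ± 0.08 (adjusted p = 0.00766), a change of 1.24-fold and below the limit of 2-fold.

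The same comparison was made in light. Of the 5 genes only TR_120189 was called, upregulated 2.26-fold in ∆*ypr2* (log2 fold change 1.17 ± 0.09, adjusted p = 0.000211). Both ∆*ypr2* libraries were above 137 CPM while both wildtype libraries were below 66 CPM. Few genes were called in light at all, 0.378% of the genes tested as higher and 0.142% as lower.

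The other 4 genes stayed within 2-fold of the wildtype in light. The log2 difference was 0.38 ± 0.08 for *hfb2* (adjusted p = 0.0295) and 0.39 ± 0.07 for *hfb3* (adjusted p = 0.0145). It was -0.82 ± 0.16 for TR_111442 (adjusted p = 0.0164), and -0.40 ± 0.30 for TR_22386 (adjusted p = 0.562). The signs of *hfb2*, *hfb3* and TR_111442 in light were opposite to those of their calls in darkness. The median over the 5 genes was 0.38, beside -0.0034 for all genes.

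**Figure D2:**
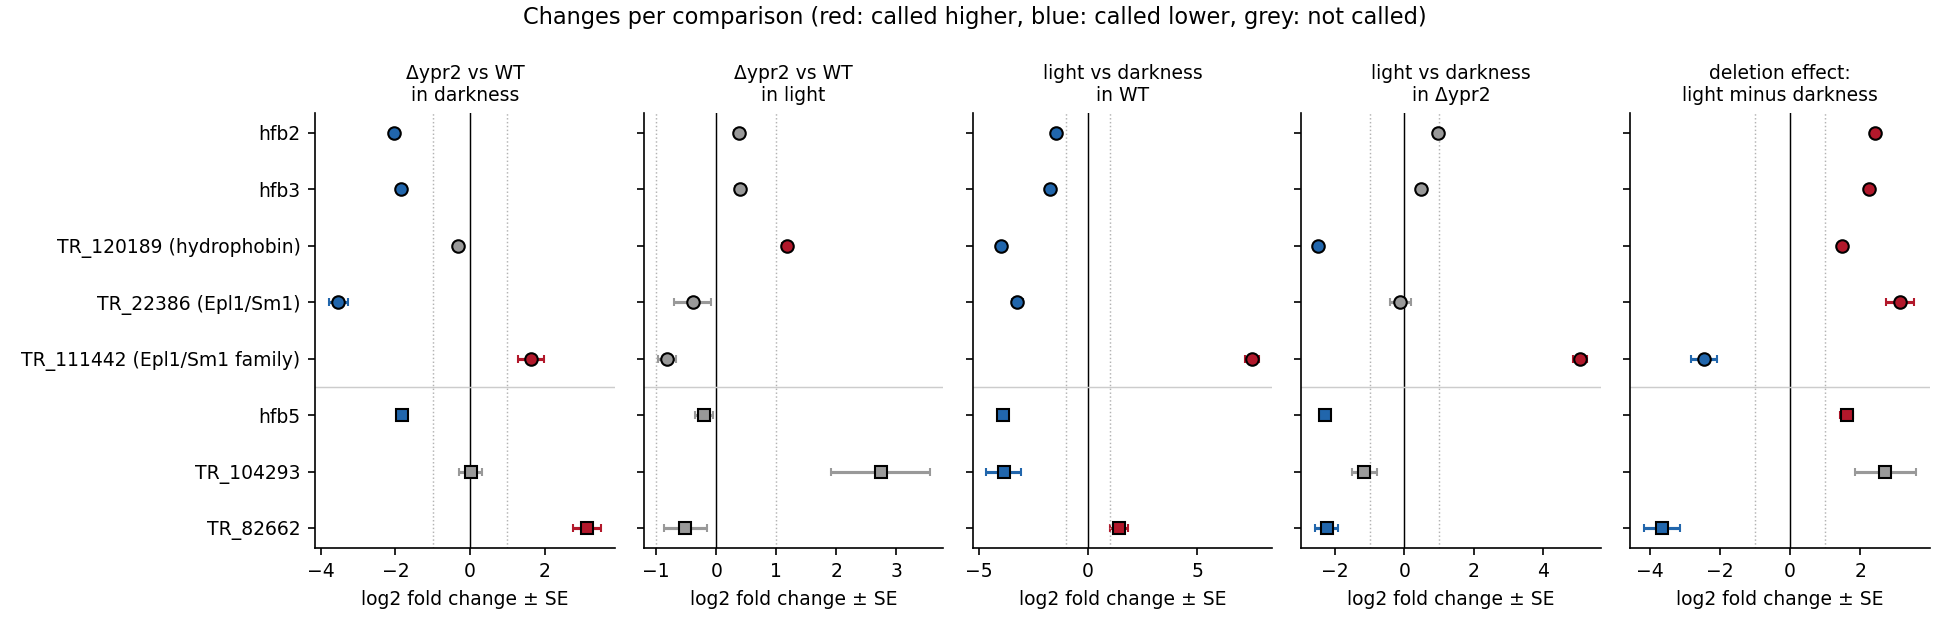
Log2 fold change with its standard error for the 5 genes (circles) and for 3 other genes annotated as hydrophobins or cerato-platanins (squares) in the 5 comparisons. Red and blue symbols were called higher and lower, grey symbols were not called, and dotted lines mark a 2-fold change. The horizontal scale differs between panels. In light only TR_120189 was called between the strains, while in the wildtype all genes shown were called between light and darkness.

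Whether the effect of the deletion itself differed between light and darkness was tested as an interaction. All 5 genes were called, 4 with a more positive effect in light and 1 with a more negative one, where 5.94% and 8.37% of all genes were called in these directions. The difference in log2 fold change, light minus darkness, was 2.42 ± 0.12 for *hfb2* (edgeR, adjusted p = 8.9e-07), 2.24 ± 0.10 for *hfb3* (adjusted p = 6.6e-07) and 1.49 ± 0.12 for TR_120189 (adjusted p = 1.19e-05). It was 3.13 ± 0.40 for TR_22386 (adjusted p = 2e-04) and -2.45 ± 0.38 for TR_111442 (adjusted p = 0.000444). For TR_111442 it lay between -3.15 and -2.01 when single libraries were left out.

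The paths to these differences were not alike. For *hfb2* and *hfb3* a called drop in darkness stood beside a small uncalled difference of the other sign in light. For TR_120189 the call was in light, and for TR_22386 in darkness. The median of the 5 differences was 2.24, beside -0.03 for all genes.

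Light against darkness in the wildtype gave calls for all 5 genes. *hfb2*, *hfb3*, TR_120189 and TR_22386 were lower in light, and TR_111442 was higher. Of all genes tested 14.4% were called lower in light and 9.4% higher. The log2 fold change was -1.46 ± 0.08 for *hfb2* (adjusted p = 2.73e-07), -1.75 ± 0.07 for *hfb3* (adjusted p = 3.41e-08) and -3.97 ± 0.08 for TR_120189 (adjusted p = 1.35e-09).

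Of the Epl1/Sm1 genes, TR_22386 was 9.52-fold lower in light (log2 fold change -3.25 ± 0.25, adjusted p = 2.18e-06). TR_111442 was 182-fold higher in light (7.51 ± 0.31, adjusted p = 7.54e-09), a change past that of 99.1% of all genes tested. On the log2 scale this change lay between 7.05 and 8.2 when single libraries were left out. The median of the 5 genes was -1.75, beside 0.0047 for all genes.

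In ∆*ypr2*, light against darkness gave fewer calls. TR_120189 was lower in light (log2 fold change -2.48 ± 0.08, adjusted p = 2.33e-08) and TR_111442 was 33.2-fold higher (5.05 ± 0.21, adjusted p = 5.76e-08). The background was 13.3% of all genes called lower and 3.81% called higher. *hfb2* was higher in light by 0.97 ± 0.08 (adjusted p = 7.58e-06), which at 1.96-fold is just under the limit, and *hfb3* by 0.49 ± 0.07 (adjusted p = 0.000288). Both had the opposite sign to their change in the wildtype.

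The call of *hfb2* in this comparison depends on its place at the limit. It reached 1.04 on the log2 scale when only library totals were used for scaling, and 1.00 without the second ∆*ypr2* library from darkness, and was then called. TR_22386 differed by -0.12 ± 0.31 (adjusted p = 0.758), and its libraries overlapped between light and darkness. The median of the 5 genes was 0.49, beside -0.0029 for all genes.

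**Figure D3:**
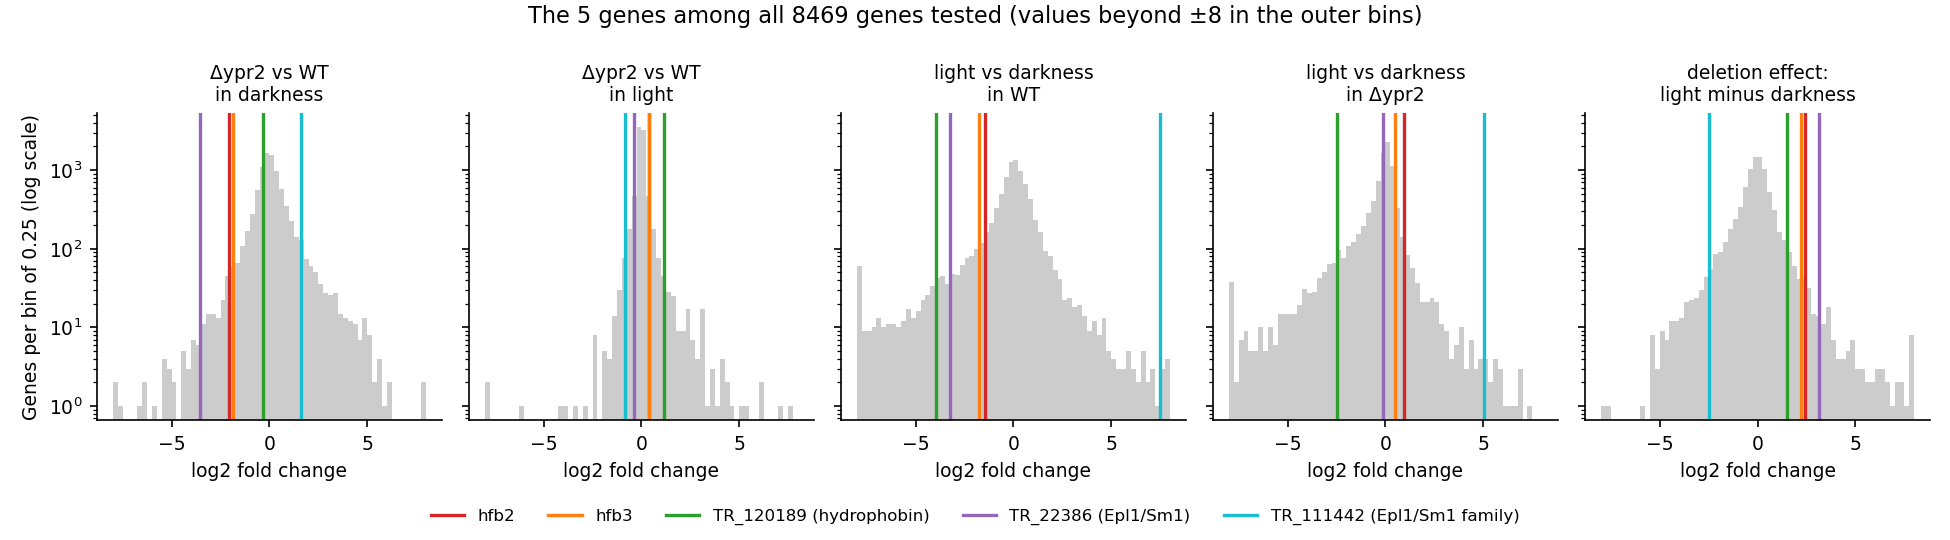
Log2 fold change of the 5 genes (coloured lines) over the distribution of all 8469 genes tested (grey, genes per bin on a log axis) in the 5 comparisons. For light against darkness in the wildtype, TR_111442 at 7.51 lies in the far right tail and TR_120189 at -3.97 in the left tail. In light the distribution between the strains is narrow, with *hfb2* and *hfb3* at 0.38 and 0.39.

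The proportions of *hfb2* to *hfb3* and of the Epl1/Sm1 genes to each other do not depend on scaling, since both counts come from the same library. The ratio of *hfb2* to *hfb3* counts was 8.36 and 8.13 in the wildtype in light, 8.33 and 8.06 in ∆*ypr2* in light, 6.77 and 6.68 in the wildtype in darkness, and 5.81 and 5.97 in ∆*ypr2* in darkness. The strains overlapped in light and not in darkness, and both strains had lower ratios in darkness.

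The share of each Epl1/Sm1 gene in their summed counts, which is not corrected for length, depended on strain and light. TR_22386 made up 2.73 and 2.34% of the counts of both genes in the wildtype in light and 97.6 and 98.3% in darkness. In ∆*ypr2* it made up 2.89 and 3.99% in light and 58.9 and 51.5% in darkness. Per kb of gene span TR_111442 was above TR_22386 in both groups from light and below it in the wildtype in darkness. In ∆*ypr2* in darkness TR_111442 had 11 ± 1.93 and TR_22386 8.71 ± 3.31 CPM per kb. The libraries overlapped, so the order of the Epl1/Sm1 genes in that group was not settled. Their sum was far lower in ∆*ypr2* in darkness, with 0.00196 and 0.00132% of all counts, than in the wildtype in darkness, with 0.0127 and 0.00789%.

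**Figure D4:**
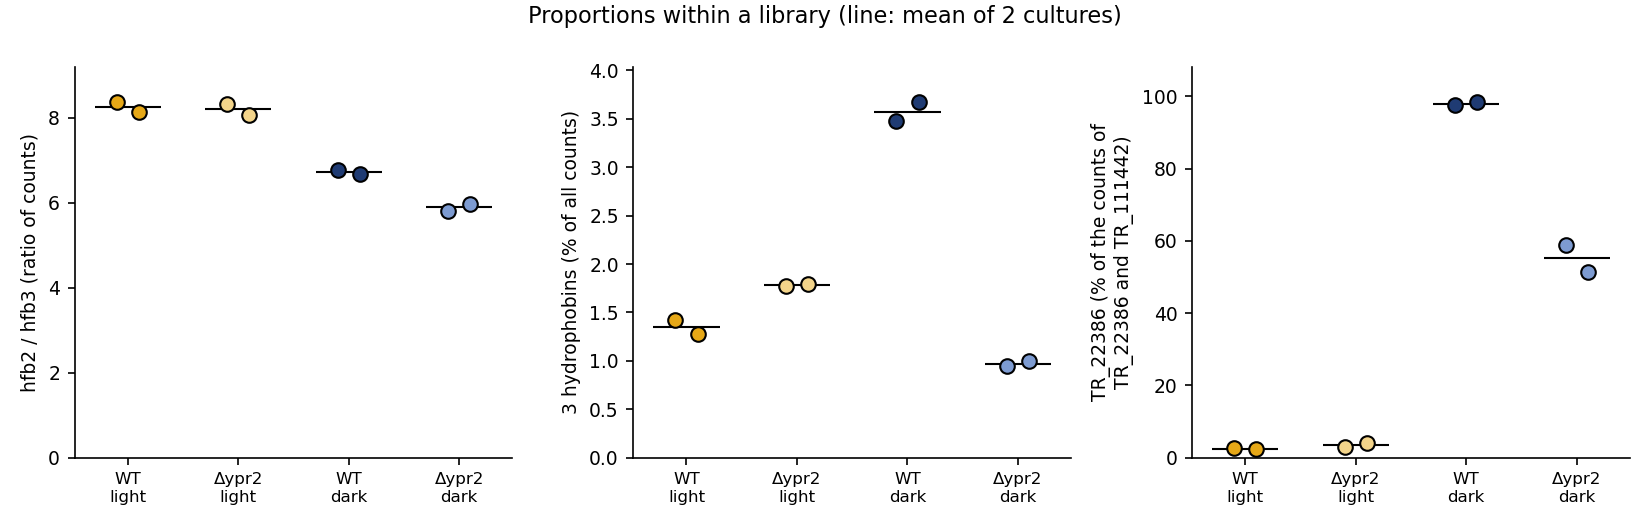
Proportions within each of the 8 libraries: the ratio of *hfb2* to *hfb3* counts, the 3 hydrophobin genes as a percentage of all counts, and TR_22386 as a percentage of the counts of TR_22386 and TR_111442. Points are libraries, lines are means of 2 cultures, and axes start at 0. The 3 hydrophobin genes range from 0.944% of all counts in ∆*ypr2* in darkness to 3.67% in the wildtype in darkness.

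Likeness of patterns was measured as the root mean square difference of log2 CPM, centred on the mean of the gene, over the 8 libraries. *hfb2* and *hfb3* differed by 0.205, and of 7341 genes averaging 5 CPM or more only 6 were closer to *hfb2* and 13 closer to *hfb3*. TR_120189 was at 1.64 from *hfb2* and 1.44 from *hfb3*. TR_22386 was at 0.957 and 0.87, and TR_111442 at 3.57 and 3.72. The Epl1/Sm1 genes were 4.38 apart from each other.

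The 3 genes most like each of the 5 were found by the same measure, which carries no test. For *hfb2* they were TR_122374 (0.0903), annotated as expansin-like, TR_121308 (0.136), annotated as a pyrroline-5-carboxylate dehydrogenase, and TR_68812 (0.141). For *hfb3* they were TR_108357 (0.0537), annotated as a C2H2 transcriptional regulator, TR_123616 (0.099) and again TR_121308 (0.103). TR_120189 was closest to TR_120030 (0.134), TR_41501 (0.154) and TR_122870 (0.204).

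The Epl1/Sm1 genes had less close matches. TR_22386 was nearest to TR_67504 (0.382), TR_123086 (0.406) and TR_67562 (0.422). TR_111442 was nearest to TR_72183 (0.403), annotated with a Cyanovirin-N domain, TR_68705 (0.448) and TR_122614 (0.465). With a smaller prior count in the log2 CPM, only TR_122614 lost its place among these.

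The study's annotation holds 4 further genes of these families: *hfb1*, *hfb5*, TR_104293 (annotated as a hydrophobin, HFB4) and *ccg-14* (TR_82662), the gene described with a cerato-platanin domain. The study picked all of them from these samples, so their direction is no independent evidence. Tested were 3 of the 4, since *hfb1* did not pass the filter. In darkness 1 was higher in ∆*ypr2* (*ccg-14*, beside 9.68% of all genes) and 1 lower (*hfb5*, beside 6.05%). In light between the strains none of these 3 was called by edgeR's quasi-likelihood test, beside 0.378% of all genes called higher and 0.142% lower. TR_104293 was higher in ∆*ypr2* by 2.74 ± 0.82 (adjusted p = 0.0436) and was called with edgeR's exact test (adjusted p = 0.00342). That difference rests on few counts, 2 and 1 in the wildtype in light and 7 and 17 in ∆*ypr2* in light. It lay between 2.13 and 3.24 when single libraries were left out, and DESeq2 gave no adjusted p for it.

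*hfb5* (TR_106538) encodes a further hydrophobin and had 356 and 395 CPM in the wildtype in darkness and 120 and 92.8 CPM in ∆*ypr2* in darkness. In light the wildtype had 25.8 and 24.1 CPM and ∆*ypr2* had 19.2 and 23.8 CPM. It was downregulated in ∆*ypr2* in darkness (log2 fold change -1.82 ± 0.12, adjusted p = 1.63e-06) and not called in light (-0.21 ± 0.15, adjusted p = 0.533). In light it was lower than in darkness in both strains (wildtype -3.91 ± 0.13, ∆*ypr2* -2.30 ± 0.14).

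*hfb1* (TR_73173) was close to silent, with 6 and 11 counts in the wildtype in darkness, 0 and 1 in ∆*ypr2* in darkness and 0 in all 4 libraries from light. The 17 counts of the wildtype in darkness were 19.6-fold above the 1 count of ∆*ypr2* after scaling, with a 95% counting interval from 3.08 to 821, and at least 5.66-fold above the wildtype in light, taken at a floor of 3 counts over the group. These ranges cover counting error only. TR_104293 was low as well, with 3 counts in the wildtype in light, 24 in ∆*ypr2* in light, and 47 and 55 in the wildtype and ∆*ypr2* in darkness. It was called lower in light in the wildtype (-3.87 ± 0.80, adjusted p = 0.000167), but it passed the filter only through libraries other than those of the wildtype in light, where it was low, and a filter at 5 CPM removed it.

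*ccg-14* had 4.45 and 9.67 CPM in the wildtype in darkness, 75.1 and 48.5 CPM in ∆*ypr2* in darkness, 16.1 and 21.5 CPM in the wildtype in light and 9.25 and 16.6 CPM in ∆*ypr2* in light. It was upregulated in ∆*ypr2* in darkness (log2 fold change 3.13 ± 0.38, adjusted p = 5.73e-05), and by 2.67 to 3.79 when single libraries were left out. It thus shared the direction of TR_111442 in darkness and not that of TR_22386. Unlike TR_111442 (5.05 ± 0.21, called higher), it was called lower in light in ∆*ypr2* (-2.23 ± 0.33, adjusted p = 0.0003). Its rise in light in the wildtype (1.42 ± 0.40, adjusted p = 0.00894) was at the edge of the threshold, and was no longer called without the first wildtype library from darkness (0.95, adjusted p = 0.0712) or without the first or the second wildtype library from light (1.61 and 1.20), and was 2.07 without the second wildtype library from darkness.

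The 6 hydrophobin genes can be read together as a description, since *hfb1* did not pass the filter and the list was drawn up with results of these data known. Of the 5 tested, 3 were downregulated in ∆*ypr2* in darkness (*hfb2*, *hfb3* and *hfb5*), beside 6.05% of all genes, and 1 was upregulated in ∆*ypr2* in light (TR_120189), beside 0.378%. In the wildtype 5 were called lower in light, beside 14.4% of all genes, TR_104293 with the limit given above, and in ∆*ypr2* 2 were (TR_120189 and *hfb5*), beside 13.3%. For the difference of the deletion effect 4 were called with a more positive effect in light, beside 5.94%.

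Genes linked to conidia, the spores on which hydrophobins are known to lie, were read in the same libraries from a list of 6 genes that the study had also called on these samples. In darkness 5 were called higher in ∆*ypr2* (9.68% of all genes) and 1, *medA*, lower (6.05%), which is a description only, since the list was picked from such calls. *con-13* among them passed the filter on low counts only through the libraries of ∆*ypr2* in darkness, where it was high. *ccg-1* (TR_73516) rose from 60.1 ± 7.47 CPM in the wildtype to 1005 ± 18.4 CPM in ∆*ypr2* in darkness, and *con-10* (TR_5084) from 0.362 ± 0.103 to 4.15 ± 0.356 CPM. *con-13* (TR_105808) was at 0 counts in 2 of the 4 libraries from light.

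The summed level of the 6 conidiation genes was 1163 and 1189 CPM in the wildtype in darkness, 1695 and 1673 CPM in ∆*ypr2* in darkness, 1830 and 1891 CPM in the wildtype in light, and 1567 and 1599 CPM in ∆*ypr2* in light. It was lowest in the wildtype in darkness, where *hfb2*, *hfb3*, TR_120189 and TR_22386 were highest. The members of the list did not move as one. *medA* (TR_123713) was highest there, with 1082 ± 20.2 CPM, and made up most of the sum. In the other groups most of the sum was *ccg-1*. It had 1532 CPM in the wildtype in light, 1182 CPM in ∆*ypr2* in light and 1005 CPM in ∆*ypr2* in darkness. *con-13* had at most 2 counts in any library outside ∆*ypr2* in darkness, too few to order those groups. The part of conidiation in the levels of the 5 genes was not tested.

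Genes next to the 5 were also read, the nearest 2 on each side where the scaffold had them, 19 in all and 18 tested. In darkness 2 neighbours were called higher in ∆*ypr2* and 0 lower, beside 9.68% and 6.05% of all genes, so that these few genes are near the background. TR_111443, 4760 bp from TR_111442, was upregulated more than that gene (log2 fold change 4.001, adjusted p = 3.54e-06). TR_40374, 2494 bp from TR_120189, rose by 1.19 (adjusted p = 0.000457). Between light and darkness TR_111443 did not follow TR_111442, which was called higher in light in both strains. In ∆*ypr2* TR_111443 was called lower in light (-4.97, adjusted p = 1.39e-06), and in the wildtype it was not called (-1.12, adjusted p = 0.196).

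Beside *hfb3* the genes on either side had the same sign in darkness, TR_111778 at -0.94 and TR_69489 at -0.998, but stayed below 2-fold. TR_111778 was called lower in light in the wildtype (-1.12, adjusted p = 2.63e-06) and for the difference of the deletion effect (1.45, adjusted p = 1.88e-05), both in the direction of *hfb3*. Over the 18 neighbours tested, 1 was called higher and 2 lower in light in the wildtype, beside 9.4 and 14.4% of all genes. For the difference 1 was called with a more positive effect in light and 3 with a more negative one, beside 5.94 and 8.37%. Of these 3, TR_40374 (-1.12) and TR_55240 (-1.03) were opposite to TR_120189, and TR_111443 (-3.85) had the sign of TR_111442. Between the strains in light 0 neighbours were called, beside 0.378% of all genes called higher and 0.142% lower, so that 0 is near the background.

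**Figure D5:**
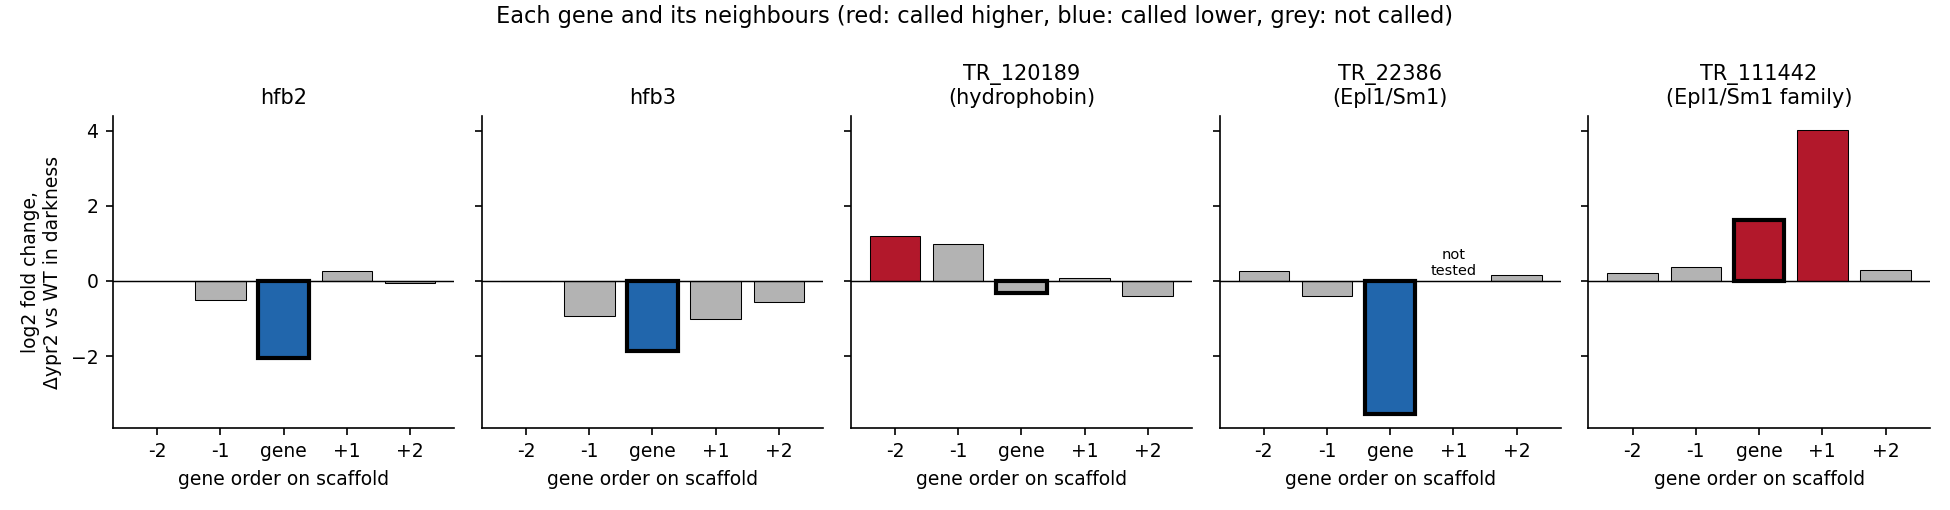
Log2 fold change of ∆*ypr2* against the wildtype in darkness for each of the 5 genes (thick outline) and up to 2 genes on each side in their order on the scaffold. Red and blue bars were called higher and lower, grey bars were not called. No gene was placed at position -2 of *hfb2*, and position -2 of *hfb3* has a bar too small to see (0.0063, TR_72549). Blue bars are those of *hfb2*, *hfb3* and TR_22386, and TR_111442 stands beside a neighbour at 4.001 (TR_111443).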

How the data were processed

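RNA of whole mycelium was sequenced with single reads. Per the labels, the authors used Bowtie2, SAMtools, bedtools and RSEM, of versions not given in the sources used. The deposited table is named FPKM but holds expected counts, with totals that differ between libraries. They were rounded and tested with the two-sided quasi-likelihood F test of edgeR 4.0.16 (R 4.3.3, TMM scaling, a mean for each of 4 groups, 4 residual degrees of freedom), for 8469 genes that reached 0.5 CPM in 2 or more libraries; 674 were left out. Calls needed a Benjamini-Hochberg adjusted p under 0.01 and a 2-fold change. The p-values rest on the spread between the 2 cultures of a group, pooled over all 4 groups, although that spread differed between groups. The fit also drew the spread of each gene towards a trend over all genes tested, so the p-values do not rest on the replicates of that gene alone. Likeness used a prior count of 2. Named were *ypr2*, the 5 genes, 4 further genes of both families, 6 conidiation genes, the 3 most alike genes and 2 neighbours on each side. Members and lists were chosen with earlier results of these data known. Of 9143 IDs, 9115 matched RefSeq. The code was tested on simulated data. Alternatives used DESeq2 1.42.0, limma 3.58.1 (voom), other scalings and filters, and leaving out each library.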

Additional observations from a re-analysis of the deposited data

Results flagged for a closer look

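The effect of the *ypr2* deletion differed between light and darkness for each of the 5 genes by a test of the difference itself (edgeR, adjusted over all genes tested). In log2 fold change, light minus darkness, it was 2.42 for *hfb2*, 2.24 for *hfb3*, 1.49 for TR_120189, 3.13 for TR_22386 and -2.45 for TR_111442. Groups of 2 cultures are too small to look for a single outlying library.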

How the results depend on the processing

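The counts of called genes among the 5 were recomputed under 21 alternative settings. Without a fold limit 4 instead of 2 were called for light against darkness in ∆*ypr2*, since *hfb2* and *hfb3* then passed. Of 515 single log2 fold changes of the 5 genes under these settings, 507 kept their direction and side of the threshold, 2 lost their call (TR_111442 in darkness, with limma-voom and without the second wildtype library from darkness), 5 gained one and 1 changed sign. The latter was TR_22386 for light against darkness in ∆*ypr2*, which lay between -0.49 and 0.302 when single libraries were left out and was never called. TR_104293 in darkness lay between -0.176 and 0.223 in the same way. *ccg-14* (TR_82662) lost its call for light in the wildtype under 6 settings. Scaling by library totals alone shifted the median of all genes by 0.116 for light in the wildtype. Replicate numbers did not pair the samples (correlations of same-numbered libraries from -0.0838 to 0.0541). With a replicate block, the calls among the 5 genes were 4 in darkness, 1 in light, 5 and 2 for light in the wildtype and ∆*ypr2*, and 5 for the difference, as without it, and of the 4 further genes *ccg-14* lost 1 call (1.43, adjusted p = 0.01). The exact test and the fit of only the 4 libraries compared could not be made for the difference. TR_111442 had 59 and 25 counts in the wildtype in darkness, a spread of 53.4% of the mean in CPM, so the size of its changes against that group is uncertain.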
